A study of Mus musculus with 12 samples.

Results

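The 36 genes described here carry out glycolysis or belong to the transcriptional response to low oxygen, and they were taken from the table by their symbols; no measured value entered that rule, although earlier results of these data were known when the list was drawn up. They are 3 glucose or lactate transporters, 9 enzymes of upper glycolysis, 7 enzymes of lower glycolysis, 2 PFKFB enzymes that tune phosphofructokinase, 2 pyruvate dehydrogenase kinases, *Hif1a* with 2 prolyl hydroxylase genes, and 10 further hypoxia response genes. Each of the 36 symbols matched 1 of the 42450 genes listed, and all 36 were among the 19410 genes that passed the filter on low counts. PolyA+ RNA was measured in wild-type E14tg2a.4 cells, a male mouse embryonic stem cell (ESC) line kept undifferentiated with the cytokine LIF, in 3 experiments of 4 libraries each.

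All 4 groups were wild-type cells that received siRNA duplexes at 50 nM. Those of Gl2-KD were directed against firefly luciferase, which the cells do not carry, and those of Srrm2-KD against *Srrm2*, a gene for a large serine- and arginine-rich splicing factor. The study's methods list more than one duplex sequence for *Srrm2*, and the sources used here do not say whether they were pooled. Cells were harvested at 24 h, or were transfected again with the same siRNA and harvested at 72 h. Until harvest they were in a serum-free medium, ESGRO, with LIF, so time in that medium, time since transfection and a repeated transfection cannot be told apart. Neither the labels nor the study's methods name a low-oxygen treatment. The knockdown was transient and left RNA of the target: *Srrm2* stood at 911, 496 and 449 CPM (counts scaled to the library size) in Gl2-KD and at 517, 154 and 199.8 CPM in Srrm2-KD at 24 h, for experiments 1, 2 and 3, the order used throughout. The 72 h values were 962, 479 and 442 CPM in Gl2-KD and 461, 182 and 217 CPM in Srrm2-KD. *Srrm2* was lower in all 3 experiments at both times, with 43.01% and 44.6% of the control level left, but its adjusted p was 0.0663 and 0.0991 with edgeR's quasi-likelihood test, above the threshold of 0.05. The targeted gene itself thus did not pass this test. The study, whose edgeR model held the RNA processing day as a covariate, reported *Srrm2* as its only significant gene at 24 h. At 72 h it reported *Srrm2* and further genes. In bulk RNA, fewer cells of a type and less RNA per cell cannot be told apart. CPM are estimated counts divided by the library total, adjusted with TMM factors, and multiplied by 1e6. Totals ran from 73933196 to 153343831, and the lowest belonged to Srrm2-KD at 72 h in experiment 3.

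Glycolysis splits glucose into pyruvate in the cytosol and yields ATP without oxygen, and lactate dehydrogenase regenerates the NAD+ that the pathway needs. Pluripotent cells in culture are known for high glycolytic rates. The hypoxia-inducible factor HIF pairs an oxygen-labile alpha subunit such as HIF1A with the stable partner ARNT and binds short hypoxia response elements with the core ACGTG or GCGTG. In oxygen the EGLN prolyl hydroxylases mark the alpha subunit for destruction, so HIF activity is set largely at the protein level, which these RNA data do not measure. HIF raises most glycolytic enzymes, glucose and lactate transporters, the pyruvate dehydrogenase kinases that keep pyruvate out of mitochondria, and genes of its own feedback such as *Egln1* and *Egln3*.

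RefSeq promoter windows on GRCm38.p6, from 250 bases before to 50 bases after a start site, were matched for 34 of the 36 genes (52 windows in all). *Ndrg1* and *Slc2a3* had no window in the table. The windows of the 5 genes with the smallest p for 72 h against 24 h in Srrm2-KD are printed because that comparison held the most members called. Those of *Bnip3* and *Ldha*, chosen after their values were seen, are printed because these 2 genes had the largest positive log2 differences of the knockdown at 72 h. They lie at chr10:59951721-59952020 (minus strand) for *Ddit4*, chr11:54100674-54100973 (plus) for *P4ha2*, chr10:59323046-59323345 (plus) for *P4ha1*, chr19:41911621-41911920 (plus) for *Pgam1*, chr8:124949205-124949504 (minus) for *Egln1*, chr7:138909457-138909756 (minus) for *Bnip3* and chr7:46845554-46845853 (plus) for the first of 2 *Ldha* windows. Capitals mark every match to ACGTG or GCGTG on either strand, and adjoining capitals are overlapping matches.
Ddit4: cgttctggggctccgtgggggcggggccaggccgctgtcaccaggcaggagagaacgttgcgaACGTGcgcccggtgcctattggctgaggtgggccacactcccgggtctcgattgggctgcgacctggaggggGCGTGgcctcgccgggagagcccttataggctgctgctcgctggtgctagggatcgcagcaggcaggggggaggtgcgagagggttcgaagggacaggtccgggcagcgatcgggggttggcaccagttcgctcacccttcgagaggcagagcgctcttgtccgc
P4ha2: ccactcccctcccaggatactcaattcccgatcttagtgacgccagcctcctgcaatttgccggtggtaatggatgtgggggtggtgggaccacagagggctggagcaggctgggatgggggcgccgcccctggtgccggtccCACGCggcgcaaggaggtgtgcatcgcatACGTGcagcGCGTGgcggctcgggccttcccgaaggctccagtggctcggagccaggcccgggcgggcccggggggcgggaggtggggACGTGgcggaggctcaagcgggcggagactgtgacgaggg
P4ha1: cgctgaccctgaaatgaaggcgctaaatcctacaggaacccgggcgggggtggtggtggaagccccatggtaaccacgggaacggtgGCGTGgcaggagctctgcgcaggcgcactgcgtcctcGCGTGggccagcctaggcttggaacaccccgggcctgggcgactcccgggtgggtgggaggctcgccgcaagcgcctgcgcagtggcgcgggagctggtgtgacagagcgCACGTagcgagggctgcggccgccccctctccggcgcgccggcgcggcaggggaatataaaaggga
Pgam1: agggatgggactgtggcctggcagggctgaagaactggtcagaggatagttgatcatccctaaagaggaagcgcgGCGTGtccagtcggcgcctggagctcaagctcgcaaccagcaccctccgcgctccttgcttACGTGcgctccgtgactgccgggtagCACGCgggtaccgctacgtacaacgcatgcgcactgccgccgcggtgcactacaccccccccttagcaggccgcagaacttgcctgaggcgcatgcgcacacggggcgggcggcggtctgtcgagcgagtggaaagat
Egln1: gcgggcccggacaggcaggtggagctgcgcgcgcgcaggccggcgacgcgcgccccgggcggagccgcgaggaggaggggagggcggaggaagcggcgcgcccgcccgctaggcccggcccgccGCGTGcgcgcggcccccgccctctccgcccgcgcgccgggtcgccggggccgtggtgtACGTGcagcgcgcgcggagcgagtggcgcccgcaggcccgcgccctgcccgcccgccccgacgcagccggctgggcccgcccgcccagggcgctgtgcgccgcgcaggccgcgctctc
Bnip3: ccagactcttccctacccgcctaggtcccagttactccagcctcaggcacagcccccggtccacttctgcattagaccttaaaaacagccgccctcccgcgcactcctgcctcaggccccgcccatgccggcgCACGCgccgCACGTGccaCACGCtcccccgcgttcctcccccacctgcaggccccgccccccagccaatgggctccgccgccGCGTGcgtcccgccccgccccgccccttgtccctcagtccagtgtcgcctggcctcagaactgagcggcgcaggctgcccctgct
Ldha: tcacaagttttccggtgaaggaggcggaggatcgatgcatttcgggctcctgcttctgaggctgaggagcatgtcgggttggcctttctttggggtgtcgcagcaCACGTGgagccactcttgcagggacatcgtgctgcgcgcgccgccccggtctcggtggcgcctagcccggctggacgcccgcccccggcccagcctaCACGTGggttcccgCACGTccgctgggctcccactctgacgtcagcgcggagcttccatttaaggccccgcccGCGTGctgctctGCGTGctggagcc
Matches were counted on both strands, so that the palindrome CACGTG counts as 2. The *Ldha* window held 7 matches, that of *Bnip3* 5, that of *P4ha2* 4, those of *P4ha1* and *Pgam1* 3 each, and those of *Ddit4* and *Egln1* 2 each. Of the 34 genes, 31 held at least 1 match in a window (91.2%) and 25 held at least 2 (73.5%), against 66.4% and 37.4% of the 10873 genes with a window and at least 10 counts in every library. A gene was counted by its window with the most matches, so genes with more windows are favoured. By window, 76.9% of the 52 held a match and 55.8% at least 2. Of the 13815 windows of the comparison genes, 60.8% and 32.5% did. *Eno2*, *Tpi1* and *Gpi1* held none in their windows. These 5 letters are short: 43.8% of all 32851 windows held a match, and GC content, which was 86% in the *Egln1* window, differs between windows.

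The 36 genes together took 1.92% to 2.38% of the counts of a library. Levels per kilobase are CPM divided by the length of the longest annotated transcript of each gene (GENCODE M21). Which transcript the cells used was not tested, so ranks between genes depend on that choice. On this scale *Pkm* (pyruvate kinase) and *Gapdh* stood highest at 1739 and 1733 CPM per kb. They were followed by *Aldoa* (aldolase A) at 1436, *Eno1* (the ubiquitous enolase) at 903, *Pgk1* at 615 and *Pgam1* at 493. *Ldha* (lactate dehydrogenase A) had 456 and *Tpi1* (triosephosphate isomerase) 366 CPM per kb. These are means over all 12 libraries. Per kilobase, the means of *Pkm* and *Gapdh* lay closer together than the libraries of either gene. Undivided, the means were 4229 CPM for *Pkm* and 5700 CPM for *Gapdh*. At the enolase and aldolase steps one isoform stood far above the other: *Eno2*, the neuronal enolase, stood at 2.49 CPM per kb against 903 for *Eno1*, and *Aldoc* at 14.5 against 1436 for *Aldoa*. Among phosphofructokinase subunits, which make up the committing step, *Pfkl* had 125 CPM per kb, *Pfkp* 73.6 and *Pfkm* 12.6. Undivided, *Pfkp* stood above *Pfkl* (means of 639 and 468 CPM). The order of these 2 thus rests on the transcript lengths used, 8681 bases for *Pfkp* and 3730 for *Pfkl*.

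Of the glucose transporters, *Slc2a1* and *Slc2a3* had 107 CPM per kb each. Undivided, *Slc2a3* stood above *Slc2a1*, with means of 671 and 350 CPM. *Slc16a3*, which exports lactate, had 17.5 CPM per kb. *Hk2* stood above *Hk1* (56.9 and 17.3 CPM per kb), both hexokinases that trap glucose in the cell. The pyruvate dehydrogenase kinases *Pdk1* and *Pdk3* had 63.2 and 14.5. *Hif1a* stood at 22.7 CPM per kb, and the hydroxylase genes *Egln1* and *Egln3* at 4.797 and 6.16. Among the other hypoxia response genes *Bnip3*, a mitophagy receptor, was highest at 69.6 CPM per kb and *Ankrd37*, an ankyrin-repeat gene, lowest at 2.56. *Pfkfb4* was close to absent: it stood at 0 in 5 libraries, where 3 counts would have been 0.0185 to 0.0396 CPM, and its highest value was 2.07 CPM, so its ratios are not named here. It is counted in the tallies over the 36 genes. Without it the median log2 differences given below would be -0.07 and 0.19 for the knockdown at 24 h and 72 h, 0.01 and 0.23 for time in Gl2-KD and Srrm2-KD, and 0.18 for the difference between the knockdown effects. The plot of levels shows all 432 values.

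**Figure D1:**
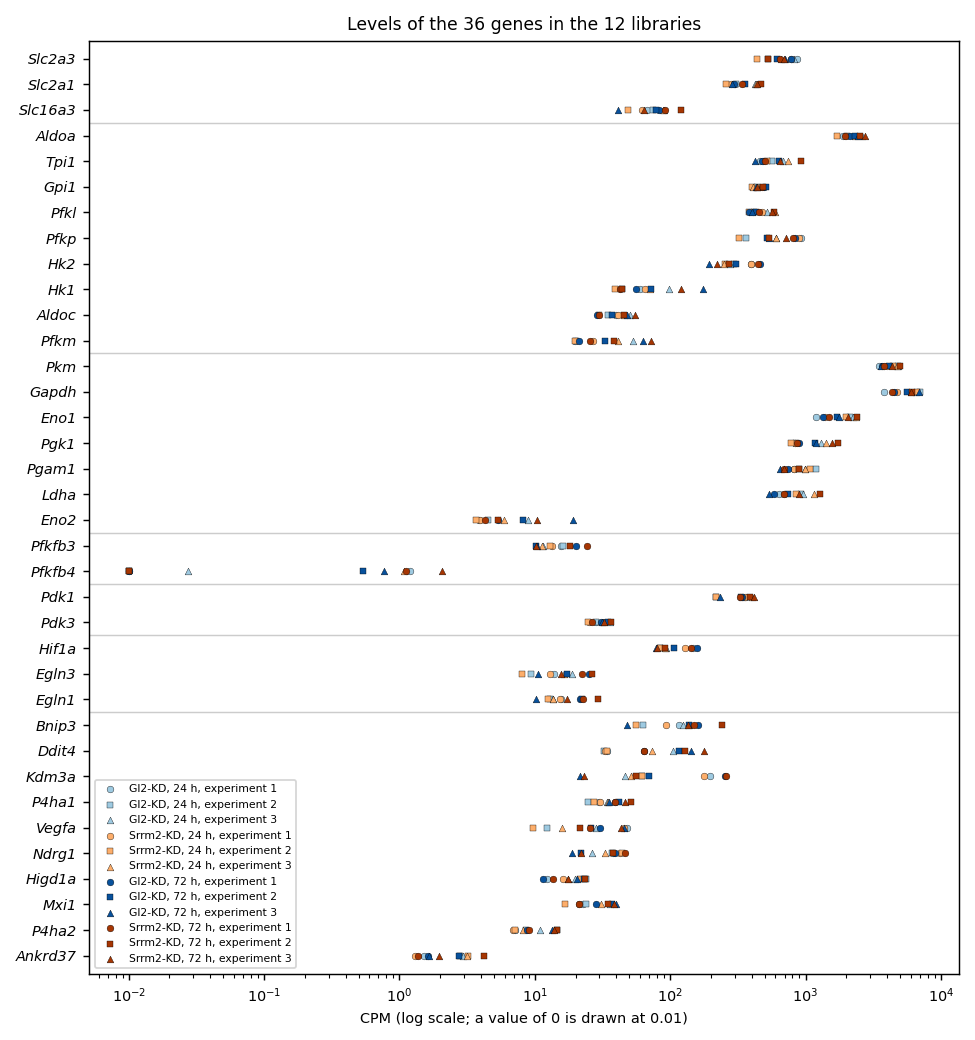
CPM (log axis) of each of the 36 genes in the 12 libraries, genes ordered by role and then by level per kilobase; colour gives siRNA and time, shape the experiment. The ratio of the highest to the lowest library runs from 1.29 for *Gpi1* to 11.98 for *Kdm3a*, and *Pfkfb4* lies at or below 2.07 CPM.

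Some of these genes share sequence with processed copies, so part of their reads could be assigned to either. Of the 31-base words in annotated transcripts (GENCODE M21), 54.7% of those of *Pgk1* also occur in another gene, as do 37.1% for *Pgam1*, 34.7% for *Pkm*, 28.5% for *Eno1*, 27.2% for *Gapdh*, 20.3% for *Bnip3* and 19.6% for *Ldha*. The copy that shared most with *Pgk1*, *Pgk1-rs7*, had 0.451% of its counts, and *Eno1b* had 0.0379% of those of *Eno1*. How Kallisto divided shared reads was not tested, and the levels of these genes are uncertain to that extent.

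At 24 h, 0 of the 36 genes were called between Srrm2-KD and Gl2-KD by edgeR (0% of the 19410 genes tested were). At an unadjusted p below 0.05 the count was 0 of 36, against 2.62% of all genes. DESeq2 and limma with voom also called 0 of the 36 (0.129% and 0.0103% of all genes). The median log2 difference over the 36 genes was -0.07 (all genes 0.01), with 14 higher and 22 lower. By experiment 16, 6 and 15 genes were higher, with medians of -0.02, -0.14 and -0.02. The overall median was 0.05 without Gl2-KD at 24 h of experiment 3, 0.06 without Srrm2-KD at 24 h of experiment 2, and -0.14 without Gl2-KD at 24 h of experiment 2 or Srrm2-KD at 24 h of experiment 3. No gene of the 36 had the 3 libraries of one siRNA wholly above or below those of the other, which 1.89% and 1.55% of all genes did.

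The smallest p at 24 h belonged to *Slc2a3*, the high-affinity neuronal-type glucose transporter, with 869, 525 and 815 CPM in Gl2-KD and 782, 435 and 655 CPM in Srrm2-KD. It was lower in all 3 experiments, by a log2 difference of -0.24 (SE 0.12, edgeR adjusted p = 1). *Pdk3* was also lower in each experiment, at 28.5, 28.3 and 36.2 CPM in Gl2-KD and 24.99, 24.5 and 32.1 CPM in Srrm2-KD (-0.19, SE 0.13). *Mxi1*, a MAX-binding antagonist of MYC, *P4ha2* (a collagen prolyl hydroxylase subunit) and *Pfkfb3* had log2 differences of -0.26, -0.23 and -0.20, negative in all 3 experiments. *Ndrg1*, a stress-responsive differentiation gene, was the reverse, with 37.7, 36.9 and 26.7 CPM in Gl2-KD and 42.3, 43.8 and 32.8 CPM in Srrm2-KD (0.24, SE 0.17). *Eno2* (-0.26, SE 0.20) and *Aldoa* (-0.12, SE 0.11) did not keep one direction over the experiments. The 8 genes named had adjusted p = 1, and their groups overlapped. In all, 11 of the 36 were lower in each of the 3 experiments (15.4% of all genes) and 2 were higher in each (17.3%).

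At 72 h edgeR again called 0 of the 36 genes (0% of all genes tested), while 24 of them had a positive fitted difference in Srrm2-KD. At an unadjusted p below 0.05 there were 7 of 36 (19.4%), 5 higher and 2 lower, against 12.9% of all genes. DESeq2 called 1 of the 36, *Ldha* (2.79% of all genes), and limma with voom called 0 (0.0206%). The median log2 difference was 0.17 over the 36 genes and -0.02 over all genes. In each of the 3 experiments 13 of the 36 were higher (18.8% of all genes) and 5 were lower (23.1%). With a separate block for every pairing of experiment and time, edgeR called 4 of the 36 (*Ldha*, *Slc2a1* and *Pfkl* higher, *Hk1* lower), with 3.73% of all genes, and a fit of the 6 libraries at 72 h alone called 1, *Hk1*, with 1.78%. Of the 8 naive pluripotency markers, 7 were lower in Srrm2-KD at 72 h, with a median of -0.22 and 0 called. At 24 h 7 of the 8 were also lower (median -0.11). The part of these markers in the values below was not tested.

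*Ldha*, which turns pyruvate into lactate, had the smallest p. It lies at chr7:46841475-46855627 (plus strand, GRCm38) and stood at 585, 737 and 533 CPM in Gl2-KD and 689, 1270.4 and 898 CPM in Srrm2-KD. It was higher in Srrm2-KD in all 3 experiments, while the groups overlapped because the lowest Srrm2-KD value lay under the highest Gl2-KD value. The fitted log2 difference was 0.59 (SE 0.18, edgeR adjusted p = 0.224).

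*Pfkl*, the liver-type phosphofructokinase, was the only 1 of the 36 whose Srrm2-KD libraries all lay above the Gl2-KD libraries (2.99% of all genes did; none of the 36 lay wholly below, as 3.67% of all genes did). It stood at 382, 432 and 402 CPM in Gl2-KD and 451, 583 and 566 CPM in Srrm2-KD (0.39, SE 0.13, edgeR adjusted p = 0.276). *Eno1*, with 1337, 1703 and 1753 against 1478, 2402 and 2055 CPM, had a log2 difference of 0.29 (SE 0.12, edgeR adjusted p = 0.33). The basal glucose transporter gene *Slc2a1* had 296, 359.9 and 288 against 341, 467 and 437 CPM (0.38, SE 0.17, edgeR adjusted p = 0.376). Each of these 3 genes was higher in Srrm2-KD in every experiment, least so in experiment 1. *Ndrg1* (0.40, SE 0.17, edgeR adjusted p = 0.342) and *Tpi1* (0.41, SE 0.20, edgeR adjusted p = 0.418) complete the genes with positive differences among the 8 smallest p.

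The lower members of that set were the isoforms with the lower level per kilobase at their step. *Eno2* stood at 5.34, 8.15 and 19.2 CPM in Gl2-KD and 4.25, 5.35 and 10.4 CPM in Srrm2-KD (-0.63, SE 0.20, edgeR adjusted p = 0.249). *Hk1* stood at 56.1, 72.2 and 176 CPM in Gl2-KD and 42.3, 44.3 and 121 CPM in Srrm2-KD (-0.56, SE 0.23, edgeR adjusted p = 0.348). Both were lower in all 3 experiments, opposite to *Eno1* of the same step and unlike *Hk2*, whose difference was -0.02 (SE 0.13).

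*Bnip3* (chr7:138890836-138909519, minus strand) had the largest log2 difference of the 36 at 72 h and one of the widest spreads. It stood at 161, 139 and 48.1 CPM in Gl2-KD and 151, 243 and 135 CPM in Srrm2-KD, slightly lower with the knockdown in experiment 1 and higher in experiments 2 and 3. The fitted difference of 0.64 had an SE of 0.45 (edgeR adjusted p = 0.592). The lactate exporter *Slc16a3* had 82.4, 78.5 and 41.3 CPM in Gl2-KD and 91.3, 120.2 and 64.1 CPM in Srrm2-KD, higher in each experiment. *Pgk1*, which makes the first ATP of the pathway, had 895, 1181 and 1199.7 CPM in Gl2-KD and 872, 1735 and 1575 CPM in Srrm2-KD, and like *Bnip3* it was not higher in experiment 1. *Pdk1* was close in experiment 1 and higher in experiments 2 and 3, at 337, 332 and 235 CPM in Gl2-KD and 328, 391 and 414 CPM in Srrm2-KD. *Egln3* differed by log2 values of -0.16, 0.62 and 0.57 in the 3 experiments and *Egln1* by 0.08, 0.39 and 0.74. *Hif1a* itself differed by -0.15, -0.20 and 0.02.

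**Figure D2:**
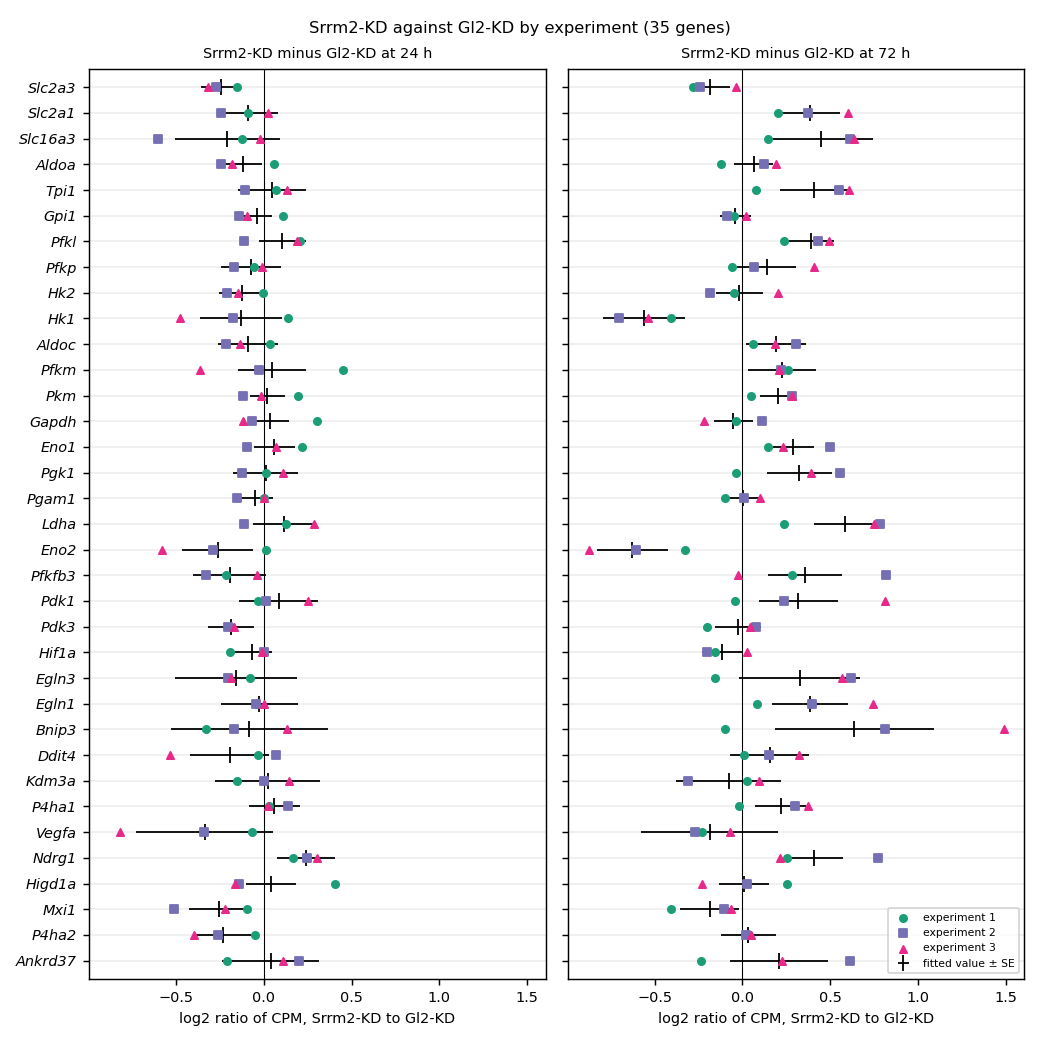
Log2 ratio of CPM in Srrm2-KD to Gl2-KD for 35 genes (without *Pfkfb4*) with 24 h in the left panel and 72 h in the right; coloured points are the 3 experiments, and the black mark with its bar is the edgeR estimate ± SE. At 72 h the points of experiments 2 and 3 lie mostly right of 0 and those of experiment 1 near 0. At 24 h 29 genes of experiment 2 lie left of 0, and the points of experiments 1 and 3 lie on both sides of it.

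The 3 experiments differed in the knockdown at 72 h. In experiment 1, 17 of the 36 genes were higher in Srrm2-KD and the median log2 ratio was -0.03, with 1 gene above 0.5. That gene was *Pfkfb4*, at 0 CPM in Gl2-KD and 1.13 CPM in Srrm2-KD. In experiment 2 there were 26 higher, a median of 0.19 and 9 above 0.5. In experiment 3 there were 28, 0.21 and 9, with *Pfkfb4* among the 9. Over all genes 48.1%, 46.5% and 47.5% were higher in these experiments, and 11.7%, 15.2% and 15.5% lay above 0.5.

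Single libraries stood at the extremes. In experiment 2, Srrm2-KD at 72 h had the highest value of the 4 libraries for 22 of the 36 genes (29.6% of all genes), and Srrm2-KD at 24 h had the lowest for 23 (18.7% of all genes). In experiment 3, Gl2-KD at 72 h had the lowest value for 20 of the 36 (28.8% of all genes), among them *Bnip3*, *Slc16a3*, *Slc2a1*, *Ldha*, *Tpi1*, *Pdk1*, *Egln1* and *Egln3*. In experiment 1 the largest such count was 13 of the 36, lowest in Srrm2-KD at 24 h (22.2% of all genes). Without Gl2-KD at 72 h of experiment 3 the median log2 difference at 72 h over the 36 genes was 0.02, and without Srrm2-KD at 72 h of experiment 2 it was -0.01, in place of 0.17. Without Gl2-KD at 72 h of experiment 1 it was 0.09. Srrm2-KD at 72 h of experiment 2 and Srrm2-KD at 72 h of experiment 3 had 81046515 and 73933196 counts, less than any other apart from Gl2-KD at 24 h of experiment 1. The part of depth in these values was not tested. How the cells were fed or how dense they were is not given per library in the sources used here.

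**Figure D3:**
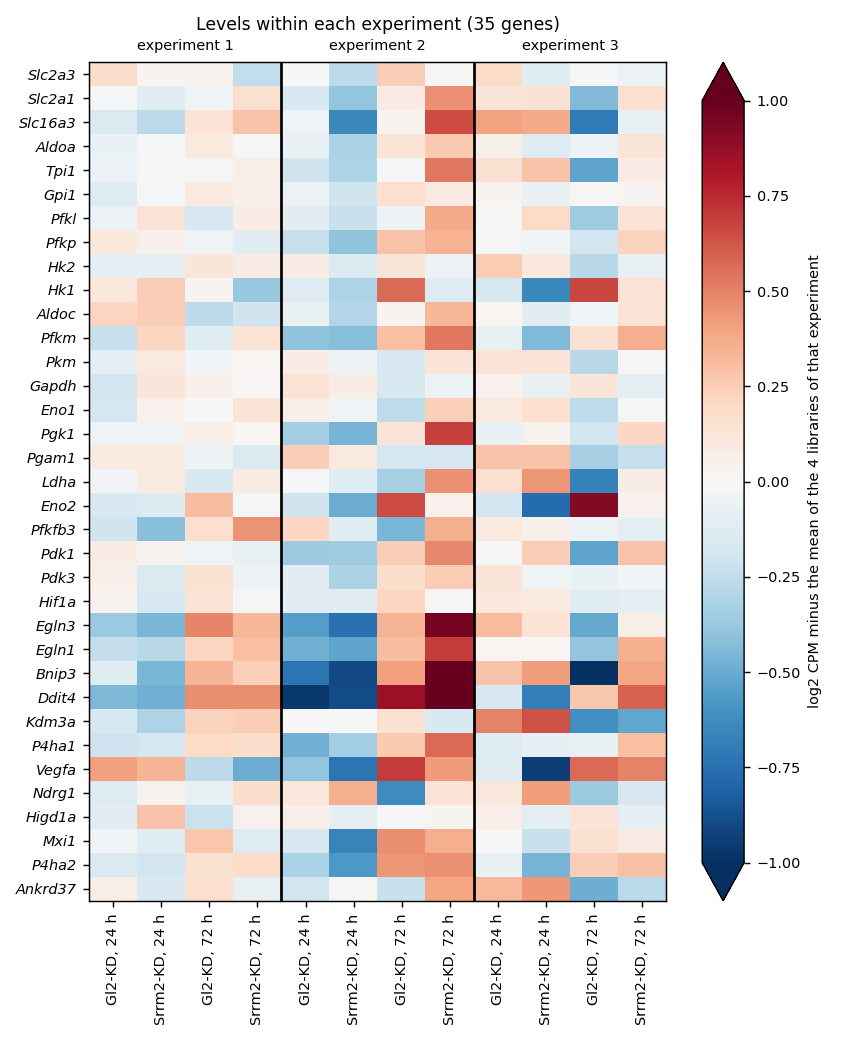
Log2 CPM of 35 genes in each library minus the mean of the 4 libraries of that experiment, in 3 blocks for the experiments; red is above and blue below that mean, and colours end at 1 in either direction. Srrm2-KD at 72 h of experiment 2 is red and Gl2-KD at 72 h of experiment 3 blue over most transporters, glycolytic enzymes and HIF feedback genes, while *Hk1* and *Eno2* run the other way in the latter.

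In Gl2-KD, 72 h against 24 h, edgeR called 0 of the 36 genes (1.45% of all genes, 282). At an unadjusted p below 0.05 there were 7 of 36, 4 higher and 3 lower (19.4%, against 16.8% of all genes). DESeq2 called 3, *Ddit4*, *Eno2* and *Pgam1* (8.33% of the 36, against 6.89% of all genes), and limma with voom 1, *Ddit4* (2.78%, against 2.48%). The median log2 difference was 0.04 (all genes 0.02), with 20 higher and 16 lower. Its sign turned without experiment 2 at 24 h (-0.04) or at 72 h (-0.07) in Gl2-KD. It was 0.16 without Gl2-KD at 72 h of experiment 3, 0.01 without that of experiment 1, and 0.07 without Gl2-KD at 24 h of experiment 1 or of experiment 3.

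*Ddit4*, an inhibitor of mTOR signalling induced by hypoxia and other stresses (chr10:59949669-59951834, minus strand), had 34.1, 32.6 and 106 CPM at 24 h and 63.99, 115 and 142 CPM at 72 h in Gl2-KD. It was higher at 72 h in all 3 experiments, although the groups overlapped because experiment 3 was already high at 24 h. The log2 difference was 1.03 (SE 0.23, edgeR adjusted p = 0.0524). *Eno2* went from 3.87, 4.50 and 8.90 to 5.34, 8.15 and 19.2 CPM (0.83, SE 0.20, edgeR adjusted p = 0.067). *Pgam1*, a phosphoglycerate mutase (chr19:41911923-41918660, plus strand), had 826, 1197 and 997 CPM at 24 h and 747, 892 and 650.3 CPM at 72 h, lower at 72 h in all 3 experiments (-0.39, SE 0.10, edgeR adjusted p = 0.0821).

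The collagen prolyl hydroxylase subunits *P4ha2* (0.45, SE 0.16, edgeR adjusted p = 0.173) and *P4ha1* (0.40, SE 0.15, edgeR adjusted p = 0.193) were higher at 72 h in each experiment. *P4ha1* was the 1 gene of the 36 whose 72 h libraries all lay above the 24 h libraries in Gl2-KD (3.91% of all genes; 0 lay wholly below, as 3.36% of all genes did). *Ldha* had log2 ratios of -0.13, -0.32 and -0.84, *Ndrg1* of 0.05, -0.74 and -0.49 and *Hk1* of -0.08, 0.70 and 0.83 in the 3 experiments, with edgeR adjusted p of 0.26, 0.276 and 0.304. Experiment 3 stood apart from the others: 25 of the 36 genes were lower at 72 h there, against 12 in experiment 1 and 9 in experiment 2. *Bnip3* had log2 ratios of 0.46, 1.14 and -1.38, and *Slc16a3* of 0.28, 0.08 and -1.12.

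In Srrm2-KD, 72 h against 24 h, edgeR called 1 of the 36 genes, *Ddit4* (0.551% of all genes, 107). At an unadjusted p below 0.05 there were 11 of 36, 10 higher and 1 lower (30.6%, against 16.3% of all genes). DESeq2 called 4, *Ddit4*, *P4ha2*, *P4ha1* and *Egln1* (5.47% of all genes), and limma with voom 1, *Ddit4* (1.33%). The median log2 difference was 0.24 (all genes 0.00), with 29 higher and 7 lower. It was 0.08 without Srrm2-KD at 24 h of experiment 2 and 0.10 without that at 72 h.

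*Ddit4* rose from 33.2, 34.2 and 72.9 CPM at 24 h to 64.3, 128 and 177 CPM at 72 h, a log2 difference of 1.38 (SE 0.23, edgeR adjusted p = 0.0445), higher in all 3 experiments. The groups overlapped. Its call was lost without any 1 of the 6 Srrm2-KD libraries: the edgeR adjusted p was 0.0608, 0.261 and 0.0700 without the 24 h libraries of experiments 1, 2 and 3, and 0.0594, 0.217 and 0.0590 without those of 72 h. In the fit of all 12 libraries it was also lost without the Gl2-KD libraries at 24 h of experiments 1 and 3 (0.0676 and 0.0553) or at 72 h of experiments 1 and 2 (0.0544 and 0.0537). The log2 difference stayed between 1.08 and 1.60 in every alternative run. *P4ha2* went from 6.91, 7.17 and 8.22 to 8.99, 14.7 and 13.9 CPM (0.72, SE 0.16, edgeR adjusted p = 0.0781). *P4ha1* went from 30.5, 27.2 and 34.96 to 38.9, 51.2 and 46.2 CPM (0.56, SE 0.15, edgeR adjusted p = 0.11).

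*Egln1*, the main oxygen-sensing hydroxylase gene of HIF (chr8:124908587-124949324, minus strand), had 15.2, 12.5 and 13.7 CPM at 24 h and 22.8, 29.2 and 17.2 CPM at 72 h in Srrm2-KD (0.71, SE 0.22, edgeR adjusted p = 0.153). *P4ha2*, *P4ha1* and *Egln1* were the 3 of the 36 with all 72 h libraries above all 24 h libraries (3.58% of all genes; 0 lay wholly below, as 3.90% of all genes did). *Pgam1* had 826, 1077 and 997 CPM at 24 h and 698, 897 and 698 CPM at 72 h, lower at 72 h in each experiment as in Gl2-KD (-0.34, SE 0.10, edgeR adjusted p = 0.142). *Pfkm* (0.53, SE 0.20), *Mxi1* (0.44, SE 0.17) and *Aldoa* (0.27, SE 0.11) complete the 8 smallest p, with edgeR adjusted p of 0.212, 0.235 and 0.253. Each of these 3 had a log2 ratio just below 0 in experiment 1, and *Pfkm* stood at 26.9, 19.8 and 41.5 CPM at 24 h and 25.5, 38.3 and 72.3 CPM at 72 h.

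Experiment 2 gave the largest ratios. There 31 of the 36 genes were higher at 72 h in Srrm2-KD with a median log2 ratio of 0.58, and 21 were above 0.5 (18.7% of all genes were). Experiments 1 and 3 had 21 and 19 higher and medians of 0.07 and 0.01. *Bnip3* had log2 ratios of 0.70, 2.12 and -0.02, *Egln3* of 0.79, 1.71 and -0.08 and *Slc16a3* of 0.55, 1.29 and -0.46. Without experiment 2 the median over the 36 genes was 0.01, and without experiment 1 it was 0.39. The angiogenic factor gene *Vegfa* differed in direction between experiments, with 45.8, 9.68 and 15.95 CPM at 24 h and 25.7, 21.6 and 43.3 CPM at 72 h.

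**Figure D4:**
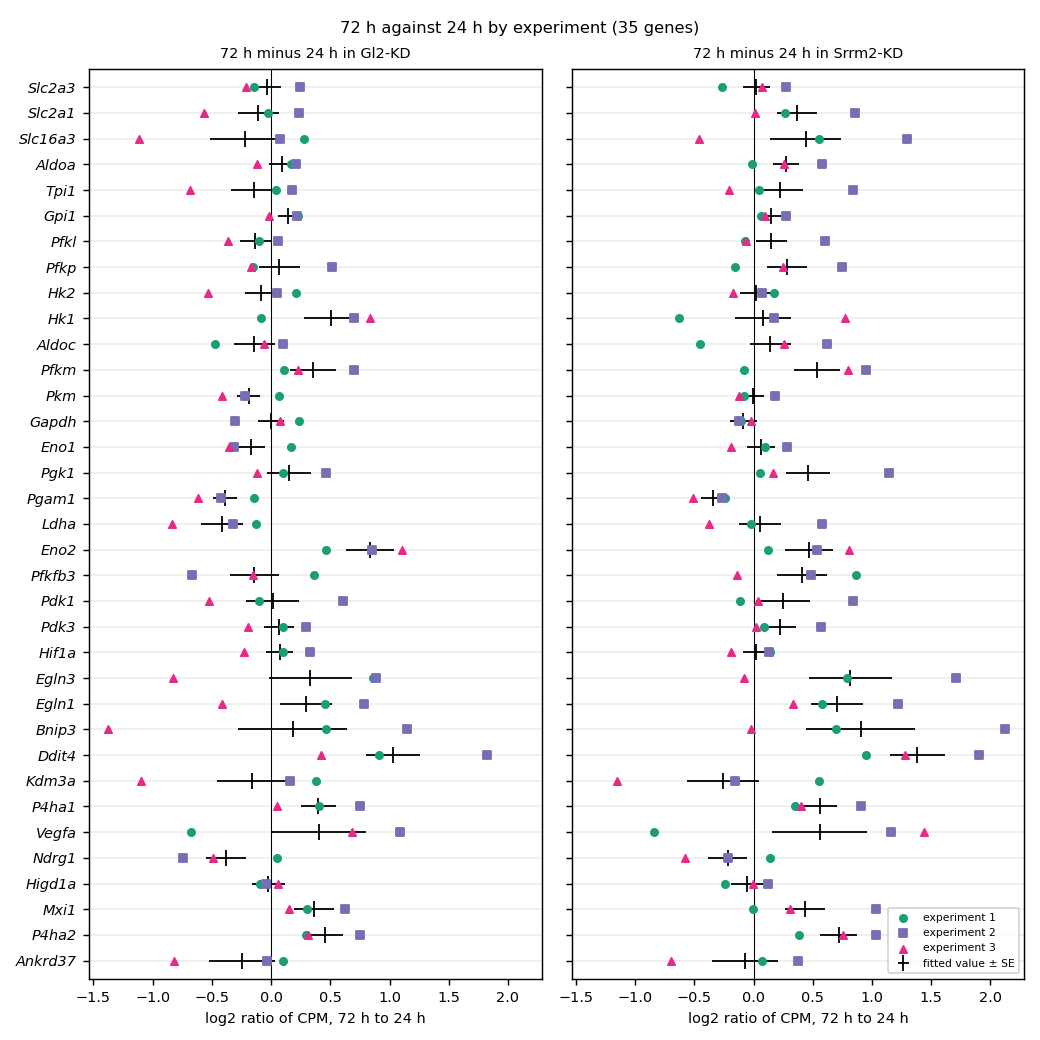
Log2 ratio of CPM at 72 h to 24 h for 35 genes (without *Pfkfb4*) in Gl2-KD (left) and Srrm2-KD (right); coloured points are the 3 experiments, and the black mark with its bar is the edgeR estimate ± SE. *Ddit4*, *P4ha1*, *P4ha2* and *Eno2* lie right of 0 and *Pgam1* left of 0 in every experiment on both sides; *Bnip3* in Gl2-KD runs from -1.38 to 1.14.

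The comparisons over time and with the knockdown share libraries, so their values are not independent. The difference between the knockdown effects at 72 h and 24 h, which is also the difference between the time effects in Srrm2-KD and Gl2-KD, was called for 0 of the 36 genes by edgeR (0% of all genes), with 0 at an unadjusted p below 0.05 against 1.64% of all genes; DESeq2 and limma with voom also called 0 (0.0103% and 0% of all genes). The smallest p belonged to *Slc2a1* (log2 difference of differences 0.47, SE 0.24), *Ldha* (0.47, SE 0.25), *Pfkfb3* (0.55, SE 0.30) and *Slc16a3* (0.66, SE 0.42). They were followed by *Pfkl* (0.28), *Eno1* (0.23), *Egln1* (0.41) and *Tpi1* (0.36), and all 8 had edgeR adjusted p = 1. In 30 of the 36 genes the fitted value was positive, with a median of 0.18 (all genes -0.02); by experiment 15, 31 and 29 genes were positive. Leaving out a single library put this median between 0.07 (without Srrm2-KD at 72 h of experiment 2) and 0.30 (without Gl2-KD at 24 h of experiment 2). It was also moved by over 1.5 times without Gl2-KD of experiment 3 at 24 h or 72 h (0.10 each), without Srrm2-KD at 24 h of experiment 2 (0.08) and without Srrm2-KD at 72 h of experiment 1 (0.28). Of the 8 genes, all but *Eno1* were positive in each of the 3 experiments, but they were picked by their p for this same difference. Of all 36, 11 were positive in each experiment (13.3% of all genes) and 2 were negative in each (17.8%).

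**Figure D5:**
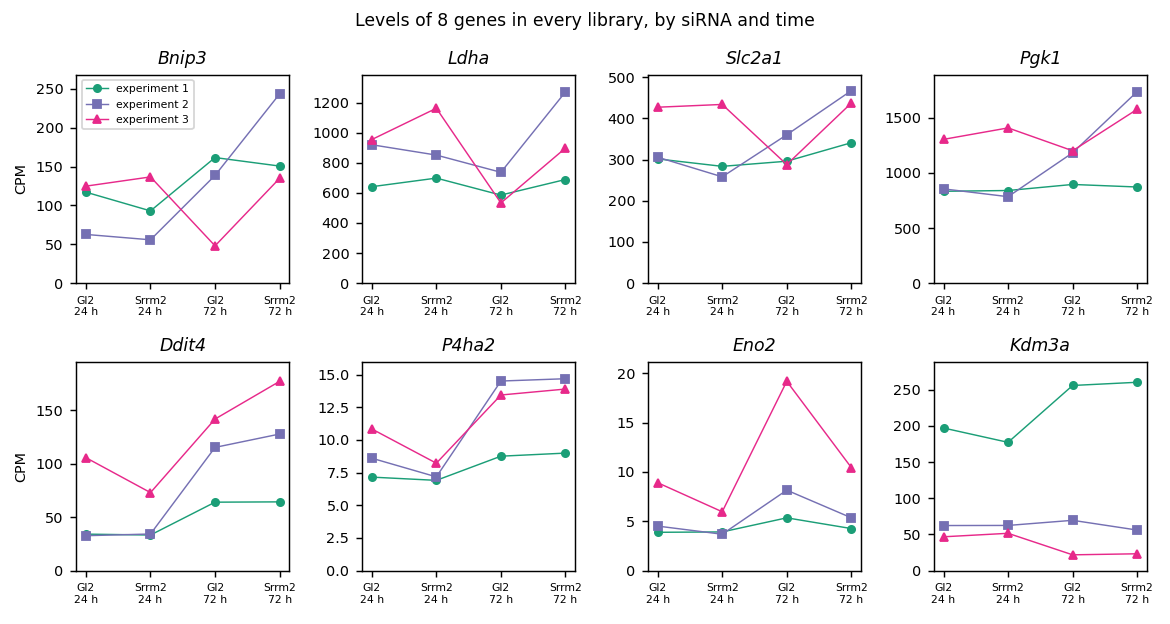
CPM (linear axis from 0) of 8 genes, picked after their values were seen, in Gl2-KD and Srrm2-KD at 24 h and 72 h, with a line for each of the 3 experiments. *Bnip3*, *Ldha*, *Slc2a1* and *Pgk1* part between the siRNAs at 72 h in experiments 2 and 3, *Ddit4* and *P4ha2* are higher at 72 h in every experiment, *Eno2* peaks in Gl2-KD at 72 h, and *Kdm3a* separates experiment 1 from the others.

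For 21 of the 36 genes the experiment accounted for the largest share of the variance of log2 CPM over the 12 libraries, for 6 the time and for 0 the siRNA. For the rest the residual was largest, such as 72.7% for *Slc16a3* and 65.0% for *Bnip3*. Shares of all genes with the time or the siRNA largest were not computed. The median share of the experiment was 48.3%, against 53.4% over all genes, of which 66.3% had it as the largest share. *Kdm3a*, a histone demethylase gene, had 197, 62.2 and 46.7 CPM in Gl2-KD at 24 h and 260.4, 55.97 and 23.2 CPM in Srrm2-KD at 72 h; its 4 libraries of experiment 1 lay between 177 and 260 CPM and the other 8 between 21.7 and 69.5 CPM. *Hk2* (396 to 460 CPM in experiment 1, 192 to 306 CPM in the others), *Pfkp* and *Hif1a* (128 to 158 CPM, 79.1 to 106 CPM) were likewise higher in all libraries of experiment 1. That makes 4 of 36 genes, against 16.7% of all genes. *Gapdh* (3819 to 4715 CPM in experiment 1, 5655 to 6991 CPM in the others), *Eno1*, *Ankrd37* and *Higd1a*, a mitochondrial inner membrane protein gene, were lower in all of them, against 13.7% of all genes. *Gapdh*, often used as a reference gene, had log2 differences of 0.03 and -0.05 for the knockdown and 0.00 and -0.09 for the time.

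By role, the 3 transporters had median log2 differences of 0.38 with the knockdown at 72 h and -0.21 at 24 h, and *Slc2a3* had -0.19 at 72 h. The 9 upper enzymes had medians of 0.14 and -0.07, and the 7 lower enzymes 0.20 and 0.02. *Hif1a* and the 2 hydroxylase genes had a median of 0.33 at 72 h, and the 10 other hypoxia response genes 0.09, between -0.19 and 0.64. *Aldoc*, *Pkm* and *Gpi1* had 0.19, 0.20 and -0.04 at 72 h, and *Ankrd37* and *Higd1a* had 0.21 and 0.01. In Srrm2-KD over time all 9 upper enzymes had positive fitted values (0.02 to 0.53), but only 1 was higher at 72 h in each of the 3 experiments. Of the 9, 2 had an unadjusted p below 0.05 (16.3% of all genes) and 0 were called (0.551% of all genes).

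Genes of the same pathways outside the 36 were counted in lists drawn up for this purpose. Of 21 further glycolysis genes tested, edgeR called 0 for the knockdown at either time (0% of all genes). For time in Gl2-KD it called 1 (1.45% of all genes), *Pfkfb2*, the heart-type PFKFB enzyme (log2 difference 0.76, SE 0.16, edgeR adjusted p = 0.0466). At 72 h the smallest p for the knockdown belonged to *Slc2a4* (-0.91, SE 0.22, edgeR adjusted p = 0.155), the insulin-responsive glucose transporter, and *Slc2a8* (-0.39, SE 0.16, edgeR adjusted p = 0.326). *Ldhb*, the other main lactate dehydrogenase subunit, was higher at 72 h in Gl2-KD (1.18, SE 0.26, edgeR adjusted p = 0.0509) and in Srrm2-KD (0.98, SE 0.26, edgeR adjusted p = 0.112), not called in either. Of 7 pentose phosphate enzymes and 12 genes of pyruvate entry into mitochondria, 0 were called in any comparison (0% to 1.45% of all genes). Unadjusted p was below 0.05 for at most 2 and 3 of them, over time in Srrm2-KD (16.3% of all genes) and in Gl2-KD (16.8%). *Pgls* and *Rpe* had the smallest p of the pentose phosphate enzymes for the knockdown at 72 h (-0.25 and 0.13). *Pcx* (pyruvate carboxylase) and *Pdk2* had those of the pyruvate entry genes (0.91 and -0.44).

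Of 12 further HIF regulators, edgeR called 0 for the knockdown (0% of all genes). For time in Gl2-KD it called 1 (1.45% of all genes), *Hif3a*, an alpha subunit that can act as an inhibitor (0.74, SE 0.15, edgeR adjusted p = 0.042). *Epas1*, which encodes HIF2A, had -0.57 (SE 0.19) in Gl2-KD and -0.82 (SE 0.19) in Srrm2-KD over time, neither called. Of 32 further HIF target genes tested, edgeR called 0 for the knockdown at either time (0% of all genes). *Fam162a*, a mitochondrial hypoxia gene, had 0.75 (SE 0.17, edgeR adjusted p = 0.151) and *Plod1*, a collagen lysyl hydroxylase, -0.42 (SE 0.12, edgeR adjusted p = 0.211) at 72 h. Over time in Gl2-KD 3 of the 32 were called (1.45% of all genes). *Cited2*, a negative regulator of HIF, fell by 1.11 (SE 0.19, edgeR adjusted p = 0.0252), and *Bhlhe41* (1.25) and *Ppp1r3c* (1.38) rose, both at low level. In Srrm2-KD over time 0 of the 32 were called (0.551% of all genes) and 12 had an unadjusted p below 0.05 (16.3% of all genes). In that comparison 26 of the 32 were higher (50.1% of all genes), with a median of 0.18 (all genes 0.00).

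The defining markers of the labelled cell type were present. The 8 listed as naive pluripotency markers were *Pou5f1*, *Sox2*, *Nanog*, *Zfp42*, *Esrrb*, *Klf4*, *Tfcp2l1* and *Dppa5a*. They summed to 4372 to 6853 CPM in every library, and *Pou5f1* stood at 1149 to 1956 CPM. The study counts *Pou5f1* and *Sox2* among the core pluripotency factors, so the sum does not by itself show a naive state. The 5 primitive endoderm markers summed to 1.45 to 2.81 CPM, the 4 trophectoderm markers to 2.29 to 6.37, and the 3 mesoderm markers to 0.777 to 2.02. The 4 markers of formative or primed cells, *Fgf5*, *Otx2*, *Pou3f1* and *Dnmt3b*, all had higher fitted values in Srrm2-KD at both times, with 0 called. Most of their summed CPM was *Dnmt3b*, at 274 to 673 CPM over the 12 libraries. At 72 h the 4 markers summed to 362 to 492 CPM in Gl2-KD and 533 to 706 CPM in Srrm2-KD (median log2 difference 0.52). At 24 h the sums were 455 to 616 and 496 to 885 CPM (median log2 difference 0.27). The 2 neural progenitor markers summed to 7.79 to 36.1 CPM, nearly all *Pax6*, and the 3 fibroblast markers to 3.89 to 24.5 CPM, nearly all *Thy1*, with 0 called in either list. The part of these markers in the values of the 36 genes was not tested.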

How the data were processed

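PolyA+ RNA of 12 libraries, 3 for each siRNA and time, was sequenced as 100-bp pairs on the NovaSeq. The authors pseudo-aligned the reads with Kallisto 0.46.1 to GENCODE M24 and deposited estimated counts per gene, unscaled; the sources used here do not give how transcripts were combined. In 33.9% to 43.1% of values per library the count was not whole. Identifiers were matched to symbols (42156 of 42450; the other 294 held 0.175% of counts). Counts were rounded to whole numbers and tested in R 4.3.3 with edgeR 4.0.16 (quasi-likelihood, TMM, filterByExpr with a minimum count of 10 and total of 15) in 1 fit of 12 libraries with the experiment as a block and 6 residual degrees of freedom. Calls were made below 0.05 after Benjamini-Hochberg adjustment across the 19410 genes. limma 3.58.1 with voom and DESeq2 1.42.0 were alternatives. Libraries of the same experiment deviated together across genes (r of 0.255 to 0.720 in 18 pairs, -0.604 to 0.219 in 36 others), so the number pairs them.

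The 36 genes and the lists were chosen with earlier results of these data known. Named genes were the 8 with the smallest p in each comparison; any other was picked after its values were seen. Intervals of values at 0 rest on 3 counts and cover counting error only. The study describes the 3 experiments as biological replicates of 1 cell line. With the experiment as a block, level differences between experiments were taken out before testing. The p-values thus measure how differences between groups vary over these replicates.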

Additional observations from a re-analysis of the deposited data

How the results depend on the processing

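Only *Pfkfb4* of the 36 genes had libraries at 0 counts, and 3 libraries a group limit every test. For the knockdown at 72 h the count of the 36 genes called was 0; it was 1 with DESeq2 (2.79% of all genes), 1 with the libraries of the 2 groups alone (1.78%) and 4 with a replicate block for each experiment and time point (3.73%). For time in Gl2-KD the count of 0 became 1 with library totals (1.39% of all genes), 3 with DESeq2 (6.89%), 1 with limma (2.48%) and 2 with glmQLFit legacy=FALSE (3.21%). It was 1 when low counts were not filtered (1.44%) and 1 with at least 10 counts in every library (3.2%). Leaving out a library or an experiment gave 0 to 3 (0% to 1.98% of all genes). For time in Srrm2-KD the count of 1 became 4 with DESeq2 (5.47% of all genes) and 2 with legacy=FALSE (1.44%). It became 0 with no replicate block, with the libraries of the 2 groups alone or with experiment 1 against the others as batch. In each of these settings 0% of all genes were called. Leave-outs gave 0 to 2 (0% to 0.711% of all genes). Without the replicate block the pairing by experiment was ignored, and the medians were -0.08 and 0.21 for the knockdown at 24 h and 72 h. In that setting 0 of the 36 genes were called in any comparison (0% of all genes). Leave-outs put the median of the knockdown between -0.14 and 0.057 at 24 h and between -0.0074 and 0.23 at 72 h, that of time between -0.10 and 0.19 in Gl2-KD and between 0.0086 and 0.39 in Srrm2-KD, and that of the difference between the knockdown effects between 0.07 and 0.34. Leaving out *Pfkfb4*, a choice made after seeing the data, kept the sign of all 5 medians. The cause of these shifts was not tested. No named value changed sign past the threshold.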
